A study of Arabidopsis thaliana with 18 samples.

Results

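BHLH101 (AT5G04150), PYE (POPEYE, AT3G47640) and AT3G13610 are 3 genes of the Arabidopsis response to iron deficiency, and their transcript levels were followed here in root hair cells in which the trihelix transcription factors GTL1 and DF1 had been gained or lost. The genes were chosen by name, each through the single probe set that the platform annotation assigns to that gene alone. They are 3 of the 13286 genes measured in this way and 3 of the 22746 probe sets tested.

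Iron in most soils is poorly soluble, and a root of Arabidopsis takes it up by acidifying the soil, reducing ferric iron at the epidermal surface, root hairs included, and importing ferrous iron. BHLH101 is a subgroup Ib basic helix-loop-helix (bHLH) factor that partners FIT, the master activator of the ferric reductase and iron transporter genes. PYE is a subgroup IVb bHLH factor that represses genes of iron movement and storage, and both BHLH101 and PYE are themselves switched on by subgroup IVc bHLH factors when iron is short. AT3G13610 encodes feruloyl-CoA 6-hydroxylase, the enzyme that commits feruloyl-CoA to scopoletin and thereby to the coumarins that iron-starved roots secrete to mobilise ferric iron.

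Root hair cells of 5-day-old Columbia-0 seedlings were obtained as protoplasts and sorted on GFP driven by the root hair promoter pEXPA7, and their RNA was hybridised to 18 ATH1 arrays, 3 biological replicates for each of 6 genotypes. The wild type (WT) and the mutants gtl1 (gtl1-1), df1 (df1-1) and gtl1df1 (gtl1-1 df1-1) carried pEXPA7:NLS-GFP, a nuclear GFP. GTL1ox carried pEXPA7:GTL1-GFP and DF1ox carried pEXPA7:DF1-GFP, so in these lines the overexpressed fusion was also the sorted signal, and overexpression was limited to cells in which pEXPA7 is active. No iron treatment was part of the design, all genotypes had the same growth conditions per the labels, and no source used here gives the iron content of the medium. In pooled sorted cells, fewer expressing cells and less RNA per cell cannot be told apart.

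Values are log2 expression after gcRMA, in which 1 unit is a 2-fold difference. The lowest value in the table was 2.22 and the array medians ran from 3.001 to 3.22. A change was called when its Benjamini-Hochberg adjusted p from limma, fitted over all 22746 probe sets and all 18 arrays, was below 0.05, two-sided. Where every array of the dimmer genotype lay within 2-fold of 2.22, the change is given as at least its measured size, because gcRMA compresses differences near background.

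The root hair marker EXPA7 lay between 12.78 and 13.34 on all 18 arrays, EXPA18 between 12.77 and 14.34, and XTH26 between 9.31 and 12.07. These are the 3 of 8 root hair markers with a single-gene probe set. XTH26 was called lower than WT in GTL1ox (-2.25), df1 (-1.05) and gtl1df1 (-0.83), EXPA18 in GTL1ox (-1.45), DF1ox (-0.27), df1 (-0.22) and gtl1df1 (-0.33), and EXPA7 in gtl1df1 (-0.23). The paper counts XTH26 among the genes repressed by GTL1, and reports short or undetectable root hairs in both overexpressors. Regulation of XTH26 and the share of hair cells sorted cannot be told apart here. Of the other cell types, LHW (stele), JKD (ground tissue) and the photosynthetic genes PSAN, PSAE-1, PSBY and RCA lay within 2-fold of 2.22 on all 18 arrays. Of these only PSAN was among the markers first listed, and the others were added. None of the 6 stele and 4 ground tissue markers first listed was measured through a single-gene probe set. The same holds for the root cap and non-hair epidermis markers. AT1G76880, the locus of DF1, followed the labels of the DF1 genotypes, with means of 7.35 in WT, 14.21 in the DF1 overexpressor, 3.45 in df1 and 4.15 in the double mutant. It was also called lower than WT in GTL1ox (5.25) and higher in gtl1 (8.57), and the GTL1 genotypes were not checked through their own gene here. The hybridisation control BioB split the arrays into 9 of WT, GTL1ox and DF1ox (2.82 ± 0.20, SD, n = 9) and 9 of gtl1, df1 and gtl1df1 (7.85 ± 0.38, SD, n = 9). In a comparison of a mutant with WT, or of an overexpressor with gtl1df1, this array set and the genotype cannot be told apart. The 2 overexpressors against WT or each other, and gtl1df1 against its single mutants, were compared within a set, but the DF1ox arrays stood apart inside theirs. BioC averaged 8.07 in DF1ox, 7.20 in WT and 6.97 in GTL1ox, BioD 10.95, 9.9995 and 9.86, and Cre 13.28, 12.55 and 12.55, and on BioB as well every DF1ox array was above every WT and GTL1ox array. Their part in the DF1ox results was not tested. The 3'-minus-5' signal of 3 control transcripts averaged from 3.04 ± 0.08 (SD, n = 3) in GTL1ox to 3.42 ± 0.07 (SD, n = 3) in gtl1df1. It was most uneven in WT (3.26 ± 0.29, SD, n = 3), whose arrays ran from 2.99 to 3.56. The part of this in the comparisons with WT was not tested.

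BHLH101, the Ib activator of iron uptake, was detected clearly in WT and was lower in each of the other 5 genotypes. Its log2 values were 5.29, 4.29 and 4.40 in the 3 WT arrays. In GTL1ox they were 3.10, 3.10 and 2.95, and in DF1ox 3.12, 3.10 and 3.19. The gtl1 arrays read 3.18, 3.43 and 3.69, the df1 arrays 3.01, 3.10 and 3.03, and the gtl1df1 arrays 3.03, 3.01 and 3.01. Every WT array was above every array of any other genotype, and 13 of the 18 arrays lay within 2-fold of the lowest value, the exceptions being the 3 WT arrays and 2 of the 3 gtl1 arrays.

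**Figure D1:**
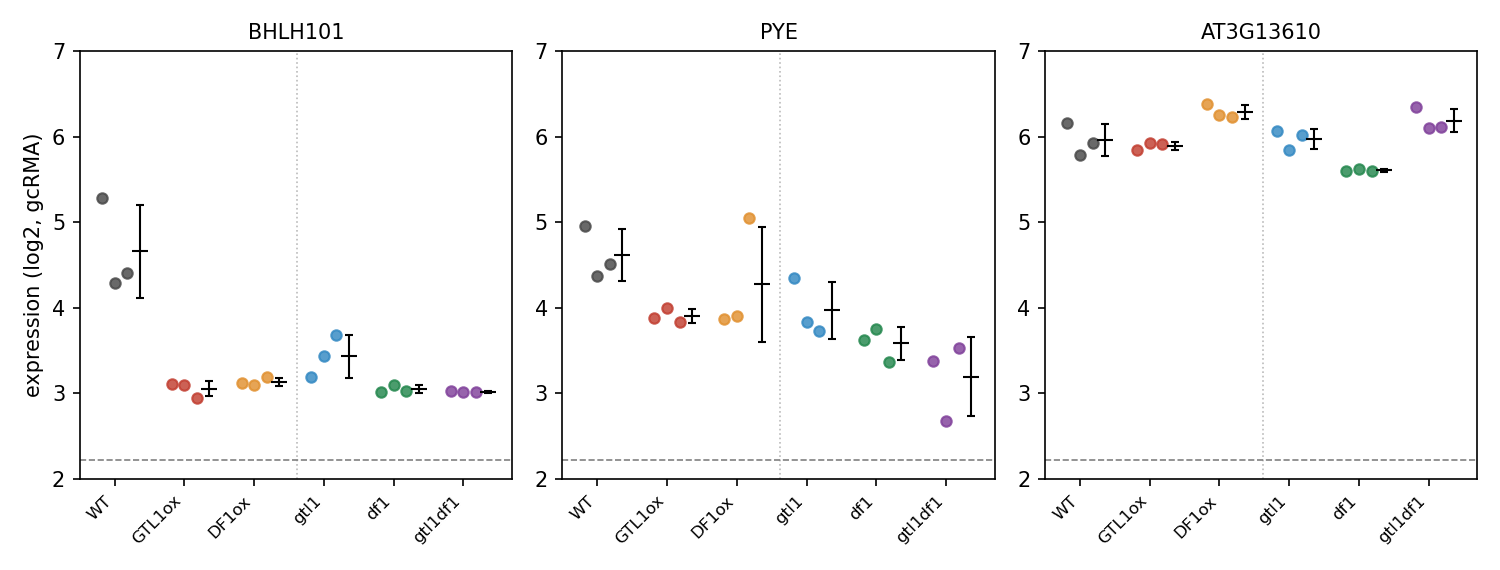
Log2 gcRMA expression of BHLH101, PYE and AT3G13610 on each of the 18 arrays (points, by genotype), with the mean and SD of each genotype (bars, n = 3). The dashed line is the lowest value in the table (2.22) and the dotted line separates the arrays with low and high BioB signal. BHLH101 was at or above 4.29 in WT only, PYE spread between 2.67 and 5.05, and AT3G13610 stayed between 5.60 and 6.38.

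BHLH101 was lower with either factor gained. Relative to WT its log2 change was -1.61 ± 0.20 (SE) in GTL1ox, at least 3.05-fold lower (adjusted p = 4.89e-05), and -1.52 ± 0.20 in DF1ox, at least 2.87-fold lower (adjusted p = 0.000587). The SE of every BHLH101 comparison comes from 1 spread pooled over all 6 genotypes, whose SD ran from 0.01 in gtl1df1 to 0.55 in WT. These SE therefore understate the spread of the WT arrays, and the adjusted p values, which rest on them, are smaller than that spread would give. As background, 9.65% of the 22746 probe sets were called lower and 14.9% higher in GTL1ox, and 4.18% lower and 3.86% higher in DF1ox. The difference between GTL1ox and DF1ox was -0.08 (95% interval -0.52 to 0.35, adjusted p = 1), with both genotypes near the lowest value. In a fit of the 6 compared arrays alone the GTL1ox call held (adjusted p = 0.0412) and the DF1ox call did not (adjusted p = 0.146).

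BHLH101 was also lower when either factor was lost, although genotype and array set cannot be told apart in these comparisons with WT. The log2 change of BHLH101 from WT was -1.23 ± 0.20 in gtl1 (2.34-fold lower, adjusted p = 0.00211). It was -1.61 ± 0.20 in df1, at least 3.06-fold lower (adjusted p = 0.000272), and -1.64 ± 0.20 in gtl1df1, at least 3.12-fold lower (adjusted p = 0.000123). Calls below WT covered 6.54% of probe sets in gtl1, 10% in df1 and 7.92% in gtl1df1, and calls above WT 5.24%, 7.54% and 6.77%. These 3 calls were lost when only the compared arrays were fitted (adjusted p = 0.202, 0.0916 and 0.0689). All 5 comparisons share the same WT arrays, of which replicate 1 was the highest, and without it the changes were -1.29 in GTL1ox, -1.21 in DF1ox, -0.91 in gtl1, -1.30 in df1 and -1.33 in gtl1df1, with all 5 calls kept. The root hair markers EXPA18 and XTH26 were also lower than WT in GTL1ox, df1 and gtl1df1, where BHLH101 was low. EXPA7 was called lower in gtl1df1 (-0.23) but not in GTL1ox (0.15) or df1 (-0.02). In DF1ox EXPA18 was called lower (-0.27) and XTH26 was not called (0.14), and in gtl1 none of these markers was called. The part of the markers in the fall of BHLH101 was not tested.

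Among the mutants BHLH101 was highest in gtl1. Its difference in gtl1df1 from gtl1 was -0.42 (95% interval -0.85 to 0.02, adjusted p = 0.322), although the arrays did not overlap, and from df1 -0.03 (95% interval -0.46 to 0.40, adjusted p = 1). As background, 2.44% of probe sets were called lower and 2.26% higher in gtl1df1 than in gtl1, and 8.23% lower and 9.22% higher than in df1. The interaction, by which loss of GTL1 acted differently in the df1 background than in the WT background, was 1.20 ± 0.28 (adjusted p = 0.0117). Interactions of positive sign were called for 8.88% of probe sets and of negative sign for 6.74%. The df1 and gtl1df1 arrays were already near the lowest value, so a further fall there could not be read. The interaction was not called in a fit of the 12 compared arrays alone (adjusted p = 0.0562).

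In level BHLH101 thus ran in the order WT (4.66 ± 0.55, SD, n = 3), gtl1 (3.43 ± 0.25), DF1ox (3.14 ± 0.05), GTL1ox (3.05 ± 0.09), df1 (3.05 ± 0.05) and gtl1df1 (3.02 ± 0.01). Only the step from WT to gtl1 exceeded the spread, and the arrays of all later neighbours overlapped. No difference between gain and loss of the factors was called, at 0.03 for GTL1ox against gtl1df1 (adjusted p = 1) and 0.12 for DF1ox against gtl1df1 (adjusted p = 0.919). Both sides lay near the lowest value. As background, GTL1ox had 11.6% of probe sets called below and 17.7% above gtl1df1, and DF1ox 10.5% below and 10.3% above.

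**Figure D2:**
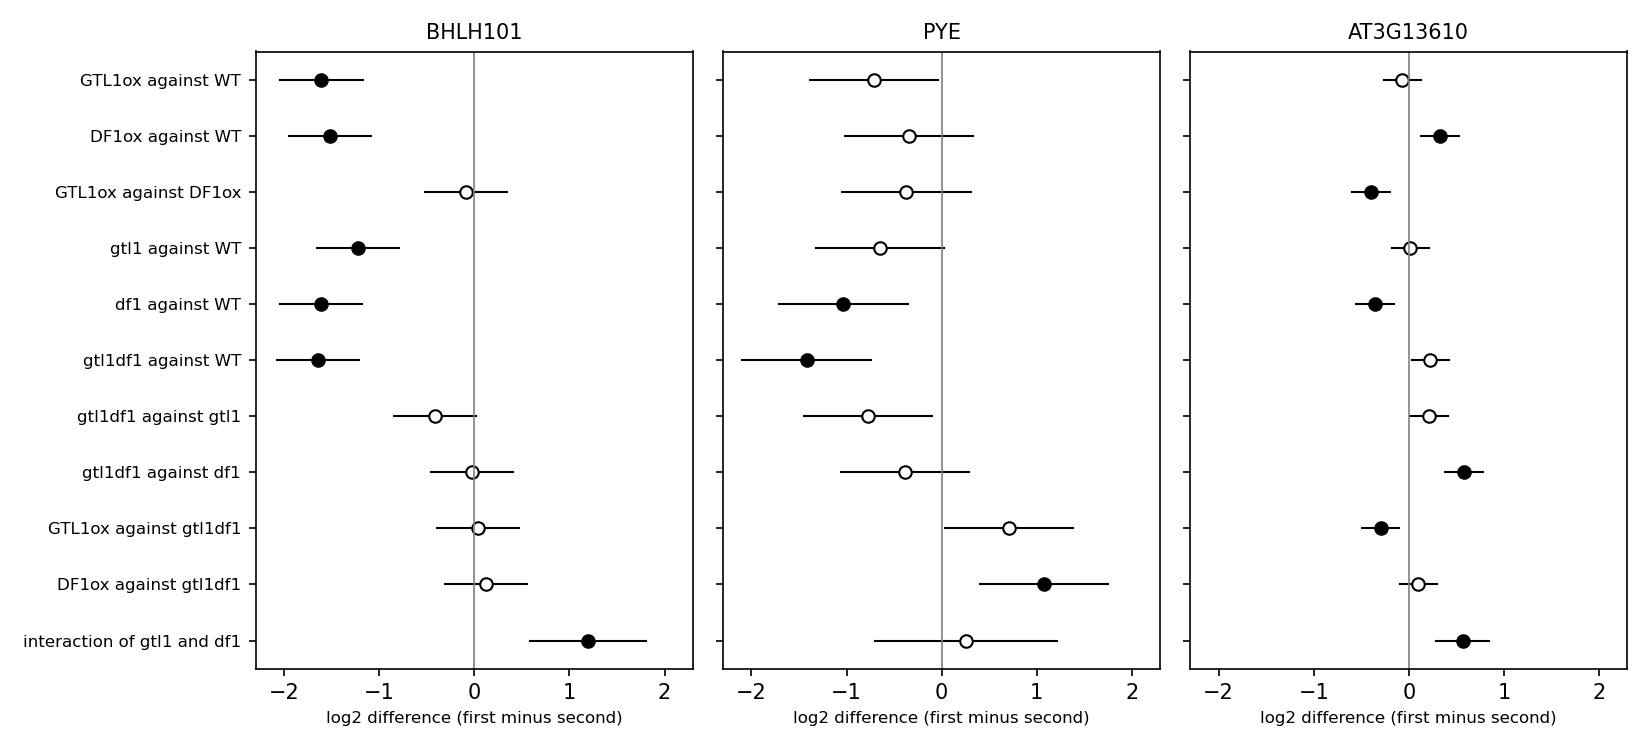
Log2 difference (first genotype minus second) of each gene in the 11 comparisons, with its 95% interval from limma. Filled points were called at an adjusted p below 0.05. BHLH101 was called below WT in all 5 other genotypes, PYE in df1 and gtl1df1 only, and AT3G13610 was called on both sides of 0.

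PYE, the IVb repressor, was highest in WT on average and lowest in gtl1df1. Its values were 4.95, 4.38 and 4.51 in WT and 3.38, 2.67 and 3.53 in gtl1df1. The df1 arrays read 3.62, 3.75 and 3.37, and the gtl1 arrays 4.35, 3.83 and 3.73. All 9 mutant arrays were below all 3 WT arrays, the closest being gtl1 replicate 1.

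A fall of PYE from WT was called in df1 and gtl1df1, where genotype and array set cannot be told apart. Relative to WT PYE fell by 1.03 ± 0.31 (SE) in df1 (2.05-fold, adjusted p = 0.0372) and fell by 1.42 ± 0.31 in gtl1df1 (2.67-fold, adjusted p = 0.00763). In gtl1 the difference was -0.65 (95% interval -1.32 to 0.03, adjusted p = 0.235). The df1 call was lost without WT replicate 1 (adjusted p = 0.110) or 3 (0.0751) and without df1 replicate 1 (0.0755), 2 (0.0677) or 3 (0.114), and after quantile normalisation (0.0890). With only the compared arrays neither was called (adjusted p = 0.0949 in df1 and 0.0928 in gtl1df1), while the gtl1df1 call held with any one array left out (adjusted p from 0.0105 to 0.0387). EXPA18 and XTH26 were called lower than WT in df1 and gtl1df1 too, and EXPA7 in gtl1df1 (-0.23) but not in df1 (-0.02). The part of these markers in the fall of PYE was not tested.

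Between the mutants no PYE change was called. It differed in gtl1df1 from gtl1 by -0.77 (95% interval -1.45 to -0.10, adjusted p = 0.209) and from df1 by -0.39 (95% interval -1.06 to 0.29, adjusted p = 0.520). The interaction was 0.26 ± 0.44 (95% interval -0.70 to 1.21, adjusted p = 0.810).

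Of the overexpressors only DF1ox split by array for PYE. GTL1ox read 3.88, 3.998 and 3.83, each below every WT array, for a difference from WT of -0.71 ± 0.31 that was not called (adjusted p = 0.131). DF1ox read 3.86, 3.90 and 5.05, the third array being the highest of all 18, and its difference from WT was -0.34 (adjusted p = 0.633), or -0.73 without that array. The other 2 DF1ox arrays lay within the GTL1ox range. The DF1ox minus gtl1df1 difference of 1.08 ± 0.31 (adjusted p = 0.0253) fell to 0.69 and was not called (adjusted p = 0.0950) without it. That call was also lost without gtl1df1 replicate 2 (0.82, adjusted p = 0.114). GTL1ox exceeded gtl1df1 by 0.71 (adjusted p = 0.121), with no overlap of arrays.

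PYE thus ran from WT (4.61 ± 0.30, SD, n = 3) through DF1ox (4.27 ± 0.68), gtl1 (3.97 ± 0.33), GTL1ox (3.90 ± 0.09) and df1 (3.58 ± 0.20) to gtl1df1 (3.19 ± 0.46). Neighbours in this order overlapped, except that all GTL1ox arrays were above all df1 arrays, a pair that was not among the tested comparisons.

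AT3G13610, the coumarin enzyme, was measured well above the lowest value on every array, and its genotype means spanned less than 1 log2 unit. Its values were 6.17, 5.79 and 5.93 in WT, 5.84, 5.93 and 5.91 in GTL1ox, and 6.38, 6.26 and 6.24 in DF1ox. In the mutants it read 6.07, 5.84 and 6.02 in gtl1, 5.60, 5.62 and 5.60 in df1, and 6.35, 6.10 and 6.12 in gtl1df1. The df1 arrays were below those of every other genotype and the DF1ox arrays were above all WT arrays.

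The AT3G13610 calls that held in every alternative run were GTL1ox against DF1ox and gtl1df1 against df1. The GTL1ox minus DF1ox difference was -0.40 ± 0.09 (SE), 1.32-fold lower (adjusted p = 0.00661), against 7.42% of probe sets called lower and 13.1% higher, and the call held in all 10 alternatives (adjusted p from 0.000755 to 0.0302). GTL1ox and DF1ox also differed on the hybridisation controls, Cre averaging 12.55 and 13.28, and the part of this in the result was not tested. It was higher in gtl1df1 than in df1 by 0.58 ± 0.09 (adjusted p = 0.000667), which also held in all 10 (adjusted p from 0.000431 to 0.0178). It was thus higher with GTL1 lost in the df1 background, whereas gtl1 and WT differed by 0.01 (95% interval -0.18 to 0.21, adjusted p = 1). The interaction of 0.57 ± 0.13 (adjusted p = 0.00943) was called, but not after quantile normalisation (0.37, adjusted p = 0.0842).

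Against WT the changes of AT3G13610 were smaller and less steady. It was higher by 0.33 ± 0.09 in DF1ox (adjusted p = 0.0441), and in df1 it fell by 0.35 ± 0.09 (adjusted p = 0.0165), so DF1ox and the df1 single mutant lay on opposite sides of WT. The double mutant, which also lacks DF1, did not lie below WT (0.23, adjusted p = 0.128) or below gtl1 (0.21, adjusted p = 0.246). With only the compared arrays neither call held (adjusted p = 0.339 and 0.172). The DF1ox call was also lost without WT replicate 2 (adjusted p = 0.132) or 3 (0.129) and without DF1ox replicate 1 (0.136), 2 (0.0889) or 3 (0.0750), and the df1 call without WT replicate 1 (0.0517) and after quantile normalisation (0.153).

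No other difference of AT3G13610 from WT was called. It was -0.07 in GTL1ox (95% interval -0.27 to 0.13, adjusted p = 0.814), and that in gtl1df1 was called without WT replicate 1 (0.33, adjusted p = 0.0196) and after quantile normalisation (0.33, adjusted p = 0.0349). The gtl1df1 minus gtl1 difference had a 95% interval of 0.02 to 0.41, with arrays that did not overlap. GTL1ox was below gtl1df1 by a log2 difference of -0.30 (adjusted p = 0.0246), a call that was lost without GTL1ox replicate 1 (0.0832) or 3 (0.0518), without gtl1df1 replicate 1 (0.114) and with only the compared arrays (0.0652).

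AT3G13610 levels ran in the order DF1ox (6.29 ± 0.08, SD, n = 3), gtl1df1 (6.19 ± 0.14), gtl1 (5.98 ± 0.12), WT (5.96 ± 0.19), GTL1ox (5.90 ± 0.05) and df1 (5.61 ± 0.01). No tested step between neighbours was called, and the step from GTL1ox to df1, whose arrays did not overlap, was not among the tested comparisons.

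Across the 18 arrays BHLH101 and PYE had a Pearson correlation of 0.615 and a Spearman correlation of 0.700, which fell to 0.221 for deviations from the genotype means. BHLH101 and AT3G13610 (0.044) and PYE and AT3G13610 (0.153) had low Pearson correlations. The points share genotype, array normalisation and the low values of BHLH101, so these are descriptions only.

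The other iron genes gave a mixed picture. Of 67 further genes listed for iron sensing, uptake, movement, storage and coumarins, 8 were matched by name to the reference record and had a single-gene probe set. A further 12 names did not match the record of the locus listed for them and were not used here, although 9 of those loci have single-gene probe sets. These 9 were the loci listed as BHLH18, BHLH19, BHLH25, BTSL1, BTSL2, IMA1, S8H, COSY and MTP8. None of the 8 genes used is on the uptake, movement or storage lists. IRT2, on the uptake list, was not measured through a single-gene probe set here. The paper counts it among the genes repressed by GTL1, from GTL1ox against gtl1df1. Relative to WT, 3 of the 8 were called higher and 1 lower in GTL1ox (median change 0.10, against 0 over all probe sets), where calls over all probe sets came to 14.9% higher and 9.65% lower. In DF1ox 1 (bHLH115) was called higher and 1 (bHLH104) lower, against 3.86% and 4.18% of all probe sets. In gtl1 1 (bHLH34) was lower, against 6.54%, and in df1 and gtl1df1 2 (bHLH34 and AT1G55290) were lower, against 10% and 7.92%. Relative to gtl1df1, 4 were called higher and 2 lower in GTL1ox (median 0.31), against 17.7% and 11.6% of all probe sets, and 4 were higher in DF1ox (median 0.44), against 10.3%.

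The IVc and IVb factors, which stand above BHLH101 and PYE in the iron response, were measured for 5 genes. bHLH34, a IVc factor, was 6.69, 6.68 and 6.04 in WT and 8.32, 8.16 and 8.41 in GTL1ox, so it rose by 1.82 ± 0.18 (3.54-fold, adjusted p = 5.41e-06) while BHLH101 fell. In DF1ox it read 6.50, 6.42 and 6.29, within the WT range. Its changes from WT were -1.51 in gtl1, -0.90 in df1 and -1.52 in gtl1df1, each with an SE of 0.18 (adjusted p = 0.000255, 0.00376 and 8.51e-05). Unlike BHLH101 it was thus higher than WT in GTL1ox and lower in the mutants, including df1, in which GTL1 was not mutated. The mutants and WT belong to different array sets, so in these falls genotype and array set cannot be told apart. In fits of only the compared arrays the gtl1 and df1 falls were not called (adjusted p = 0.106 and 0.124).

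The other factors of this group moved less. bHLH121, a IVb partner of the IVc factors, rose by 0.79 ± 0.13 in GTL1ox (adjusted p = 0.000623, or 0.0761 with only the compared arrays), and bHLH115 rose by 0.38 ± 0.07 (adjusted p = 0.00156). In DF1ox bHLH115 was higher by 0.28 ± 0.07 (adjusted p = 0.0312), a call lost without WT replicate 3 (0.127), without DF1ox replicate 2 (0.121) or 3 (0.0563) and with only the compared arrays (0.266). bHLH104 fell by 0.40 ± 0.09 in DF1ox (adjusted p = 0.0153), a call lost without DF1ox replicate 1 (0.0568) and with only the compared arrays (0.146). ILR3, a IVc factor named here after its values were seen, lay between 9.33 and 9.78 on all arrays and was not called against WT in any genotype. NAI1, a IVa factor, was not called against WT either and lay between 4.10 and 6.10.

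**Figure D3:**
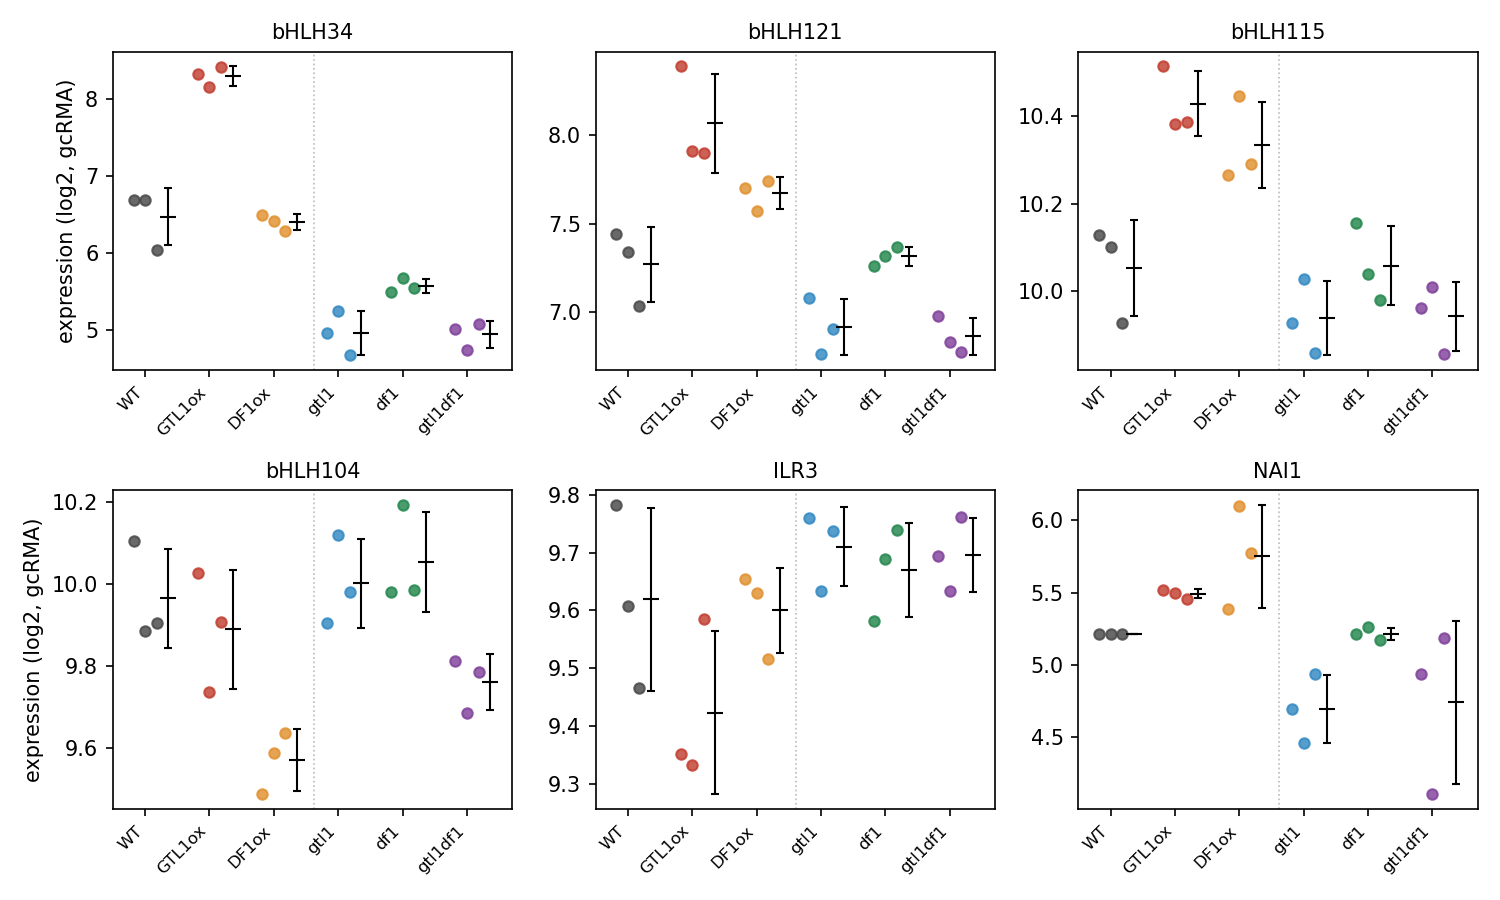
Log2 gcRMA expression on each array of the IVc and IVb factors bHLH34, bHLH121, bHLH115, bHLH104 and ILR3, and of the IVa factor NAI1, with the mean and SD of each genotype (n = 3). The vertical scales differ between panels and do not start at 0. bHLH34 spans 4.67 to 8.41, with the 3 GTL1ox arrays on top, whereas bHLH104 and ILR3 span under 1 unit.

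AT1G55290, the paralogue of AT3G13610, was among the genes lowered in GTL1ox, where AT3G13610 was not called. It read 11.07, 11.07 and 10.97 in WT and 8.72, 9.25 and 8.71 in GTL1ox, so it fell by 2.14 ± 0.20 (4.42-fold, adjusted p = 4.25e-06) against -0.07 for AT3G13610, and the difference between the 2 genes was not tested. It fell by 0.98 ± 0.20 in gtl1df1 (adjusted p = 0.00500, or 0.0954 with only the compared arrays), where AT3G13610 was not called. Its fall of 0.71 ± 0.20 in df1 (adjusted p = 0.0277) was lost without any one of the WT replicates (0.0621, 0.0706 and 0.0602), without df1 replicate 1 (0.0553) or 2 (0.122) and with only the compared arrays (0.102). Cross-hybridisation between the pair was not tested. BGLU42, a beta-glucosidase of coumarin release, was not called against WT in any genotype, and lay between 4.72 and 6.04.

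Other genes, listed for metal handling after values of these arrays had been seen and so described only, also moved in GTL1ox. Of 10 such genes 1 (SIRB) was called higher and 4 lower in GTL1ox than in WT, the latter being ZIP9, MT1C, PYK10 and MTP11, whose call was lost with only the compared arrays (adjusted p = 0.0548). The share of all probe sets called in that comparison was 14.9% higher and 9.65% lower. PYK10 was counted as listed, and its part in metal handling was not tested. In gtl1 SIRB was called lower than WT (-0.59), against 6.54% of all probe sets. In df1 SIRB was lower (-0.61) and ZIP9 higher (0.67), against 10% and 7.54%. In gtl1df1 SIRB (-0.76), MTP11 (-1.09) and PYK10 (-0.70) were lower, against 7.92%. In these mutant comparisons genotype and array set cannot be told apart. ZIP9, a transporter of the family that carries zinc and iron, was 8.23, 7.58 and 7.71 in WT and 4.55, 4.45 and 4.74 in GTL1ox, a fall by 3.26 ± 0.16 (9.59-fold, adjusted p = 1.63e-08). MT1C, a metallothionein, fell by 3.13 ± 0.14 (adjusted p = 5.19e-09), and SIRB, which inserts iron into the siroheme ring, rose by 1.48 ± 0.11 (adjusted p = 6.22e-07). In DF1ox, whose BHLH101 level was not told apart from that of GTL1ox, ZIP9 read 7.48, 7.57 and 7.42 and MT1C 14.32, 14.30 and 14.45. Neither ZIP9 (-0.35, adjusted p = 0.234) nor MT1C (-0.48, adjusted p = 0.0505) was called against WT there. For both genes every DF1ox array was nevertheless below every WT array, and MT1C was just over the threshold.

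**Figure D4:**
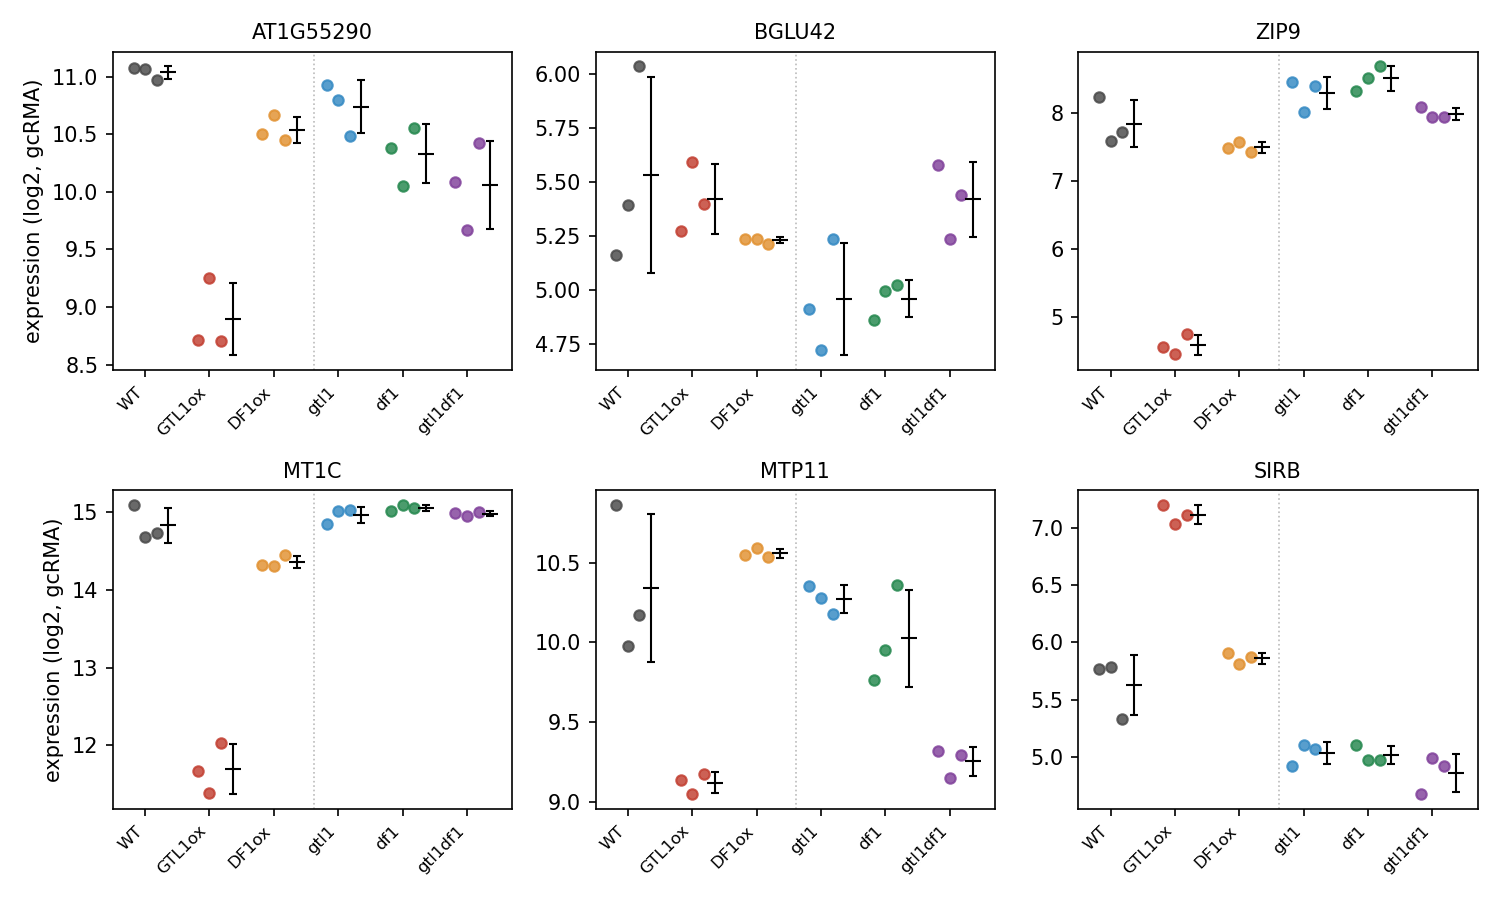
Log2 gcRMA expression on each array of the coumarin genes AT1G55290 and BGLU42 and of the metal genes ZIP9, MT1C, MTP11 and SIRB, with the mean and SD of each genotype (n = 3). The vertical scales differ between panels and do not start at 0. AT1G55290, ZIP9 and MT1C are lowest, and SIRB highest, in all 3 GTL1ox arrays.

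To place the 3 genes among the rest, the 5 genes with the most similar profile over the 18 arrays were taken for each. The candidates were 2771 single-gene probe sets whose genotype means spanned at least 1 log2 unit. AT3G13610 itself spanned 0.68, so genes with changes as small as its own were not candidates. For BHLH101 the 5 most similar were AT5G18470 (Pearson 0.899), AT4G23670 (0.865), AT5G40980 (0.858), AT3G45700 (0.831) and AT1G22330 (0.817). The first 4 of them lay, like BHLH101, near the lowest value outside WT, with means of 3.67 to 4.78 in WT and 2.26 to 3.16 elsewhere, whereas AT1G22330 averaged 10.78 in WT and 9.49 to 10.18 elsewhere.

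For PYE the 5 most similar were HCT (0.762), an acyltransferase of the phenylpropanoid pathway, SMZ (0.761), an AP2-family repressor of flowering, AT3G09405 (0.757), AT5G05840 (0.751) and AT1G06050 (0.722). All 5 had their lowest mean in gtl1df1, as PYE did. For AT3G13610 they were AT3G52470 (0.780), AT1G67950 (0.763), AT5G06700 (0.724), AT5G54855 (0.705) and the actin gene ACT11 (0.689), and 4 of these had a higher mean in gtl1df1 than in WT, AT5G54855 being the exception. These genes were picked as the highest of many, so the correlations are descriptions.

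**Figure D5:**
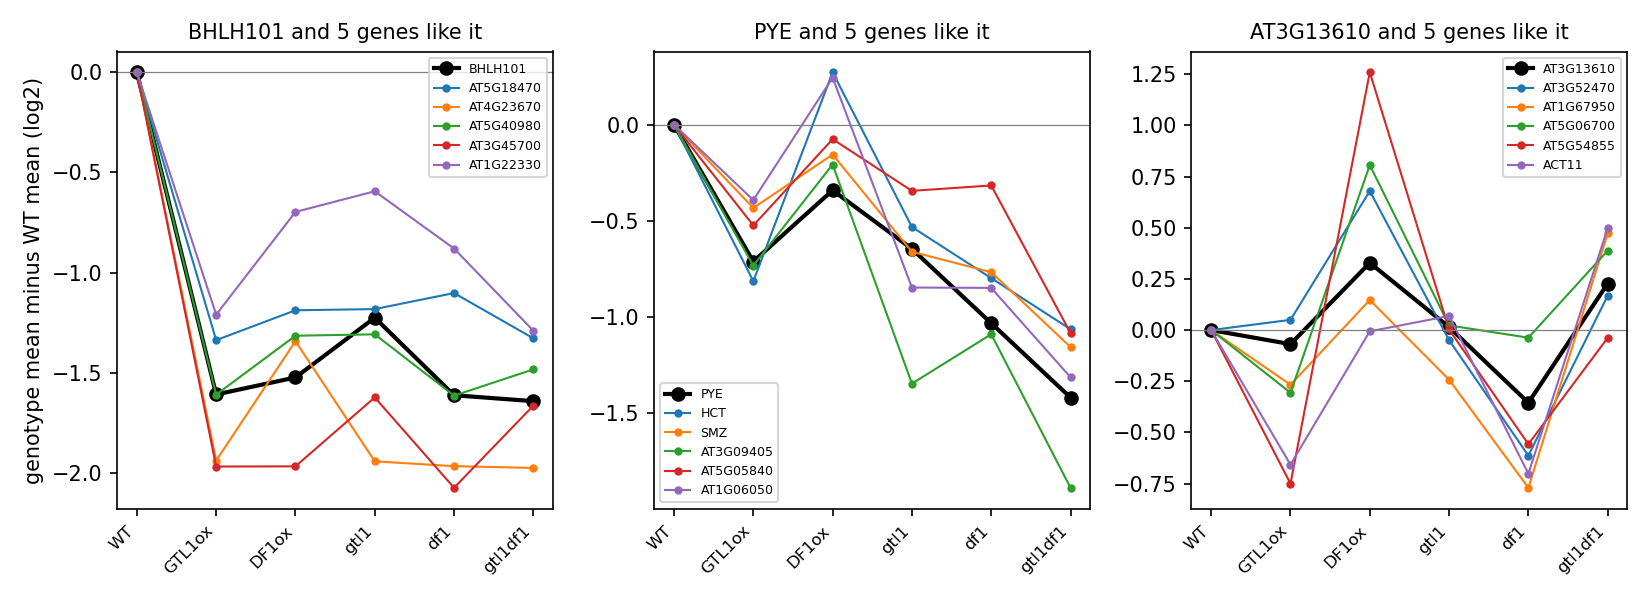
Genotype mean minus WT mean (log2) for BHLH101, PYE and AT3G13610 (black) and for the 5 genes most correlated with each over 18 arrays (colours). Lines only join the genotypes for reading, and the genes were picked for their likeness over these same arrays. The BHLH101 panel lies below 0 outside WT, the PYE panel is lowest in gtl1df1, and in the AT3G13610 panel df1 lies below WT for all 6 genes.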

How the data were processed

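Root hair protoplasts were profiled on ATH1 arrays. The deposited values are log2 expression per probe set that the authors computed with gcRMA in R, and software versions were not given in the sources used here. By the labels 6 arrays had two-cycle and the rest one-cycle labelling, and which ones is not stated. The series text names nuclei where the methods name protoplasts, and the media named also differ. Of 22810 probe sets, 64 controls were left out and 22746 tested. Of these 13513 had 1 gene in the platform annotation, 503 several and 8730 none, and only single-gene probe sets were named. A share of 27.9% of the values was within 0.01 of the lowest one.

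Each genotype had its own mean in a limma 3.58.1 fit (R 4.3.3) on all 18 arrays, with empirical Bayes variances, 11 comparisons and Benjamini-Hochberg adjustment over all probe sets. Intervals and SE are from that fit. Depth has no meaning for arrays, and their number, 3 per genotype, limits precision. The code was tested on simulated data.

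Alternatives were quantile normalisation, leaving out probe sets whose mean was at or under the median, a replicate block, only the compared arrays, and each array left out. Replicate numbers did not pair the samples in general: same-numbered deviations correlated above 0.1 in all replicates for df1 and gtl1df1 (0.101, 0.208 and 0.279) and for GTL1ox and gtl1 (0.115, 0.121 and 0.187) only. The named genes were the 3 genes, up to 4 per iron sub-list by number of calls, and the 5 best correlated genes for each. The genes and lists were chosen with earlier results of these data known. Sequences and genome positions were not used here.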

Additional observations from a re-analysis of the deposited data

Results flagged for a closer look

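The effect of losing GTL1 differed between the WT and df1 backgrounds for BHLH101 and AT3G13610. For BHLH101 loss of GTL1 gave a log2 change of -1.23 in the WT background and -0.03 in the df1 background, an interaction of 1.20 (limma, adjusted p = 0.0117). The df1 and gtl1df1 arrays were all near the lowest value, and whether that limit alone makes the difference was not tested.

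For AT3G13610 loss of GTL1 gave 0.01 in the WT background and 0.58 in the df1 background, an interaction of 0.57 (limma, adjusted p = 0.00943), and 8.88% of all probe sets had a called interaction of that sign. The df1 arrays read 5.60, 5.62 and 5.60, below all others. WT belongs to the array set with low BioB signal and the 3 mutants to the other, so part of either interaction cannot be told apart from array set.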

How the results depend on the processing

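Of 348 alternatives for the changes of BHLH101, PYE and AT3G13610, 309 kept direction and side of the threshold. Fitting only the compared arrays left the size of each change as it was, and these were no longer called: BHLH101 in DF1ox (-1.52), gtl1 (-1.23), df1 (-1.61) and gtl1df1 (-1.64) and its interaction (1.20); PYE in df1 (-1.03) and gtl1df1 (-1.42) against WT and in DF1ox against gtl1df1 (1.08); and AT3G13610 in DF1ox (0.33) and df1 (-0.35) against WT and in GTL1ox against gtl1df1 (-0.30). Quantile normalisation ended the df1 calls of PYE (-0.86) and AT3G13610 (-0.21) and the interaction of AT3G13610 (0.37), added gtl1df1 against WT for AT3G13610 (0.33) and turned the uncalled BHLH101 difference of GTL1ox from gtl1df1 to -0.030. With only probe sets above the median, PYE was called higher in GTL1ox than in gtl1df1 (0.71). The cause was not tested.

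With one array left out, calls changed for AT3G13610 in DF1ox (0.24 to 0.43), df1 (-0.44 to -0.25) and gtl1df1 (0.14 to 0.33) against WT and in GTL1ox against gtl1df1 (-0.34 to -0.22), and for PYE in df1 against WT (-1.15 to -0.86) and DF1ox against gtl1df1 (0.69 to 1.28). Uncalled differences changed sign for AT3G13610 in GTL1ox (-0.15 to 0.033) and gtl1 (-0.071 to 0.12) against WT and for PYE in GTL1ox against DF1ox (-0.58 to 0.019).

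The replicate block, used although numbers did not pair the samples in general, ended no call of these 3 genes. Its change for BHLH101 in GTL1ox was -1.61.

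Probe sets called fell, with only the compared arrays, from 5574 to 2888 (GTL1ox), 1828 to 78 (DF1ox), 2678 to 125 (gtl1), 3995 to 333 (df1) and 3342 to 990 (gtl1df1) against WT, and from 1071 to 358 for gtl1df1 against gtl1. The last was 573 to 613 without gtl1 replicate 1 or 2 or gtl1df1 replicate 1 or 2, and 1615 with dim probe sets left out. The df1 count was 2636 without df1 replicate 2. Quantile normalisation moved the higher and lower calls from 878 and 950 to 1121 and 774 in DF1ox and from 1191 and 1487 to 1579 and 1311 in gtl1. Calls among the 8 iron genes ran from 0 to 3 in DF1ox, 0 to 2 in gtl1, 0 to 3 in df1 and 1 to 3 in gtl1df1 against WT and from 0 to 3 in gtl1df1 against df1. Of 22 called changes of the other genes listed for iron and metal handling against WT, 14 were lost with only the compared arrays and 1 after quantile normalisation. None changed sign. Values near 2.22 limit what can be read of BHLH101.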
